A study of Homo sapiens with 12 samples.

Results

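The 10 genes described here encode the ligand TNFSF10 (TRAIL), the death receptors FAS, TNFRSF10A (DR4), TNFRSF10B (DR5) and TNFRSF1A (TNFR1), the decoy receptors TNFRSF10C (DcR1) and TNFRSF10D (DcR2), the related receptor TNFRSF1B (TNFR2), the adaptor FADD and the inhibitor CFLAR (cFLIP). They were chosen by name from 60754 genes, and all 10 were among the 13422 protein-coding genes tested. Their RNA was followed in 2 human acute myeloid leukemia (AML) cell lines after 36 h with duocarmycin SA (DSA), a natural product that alkylates DNA in the minor groove. HL-60 cells, in IMDM medium, received no DSA, a low dose of 112.7 pM or a high dose of 500 pM. Molm-14 cells, in RPMI medium with less serum, received no DSA, a low dose of 11.1 pM or a high dose of 100 pM. Each of the 6 groups had 2 libraries of total RNA. The sample labels call the controls untreated, while the study's methods describe vehicle for them. Line, medium, serum and dose differ together between the lines, and their parts in a difference between the lines cannot be told apart.

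Death receptors are membrane proteins of the tumour necrosis factor receptor family with a cytoplasmic death domain. In FAS, TNFRSF10A and TNFRSF10B this domain, once a ligand has clustered the receptors, recruits FADD and through it the initiator caspases CASP8 and CASP10. CFLAR resembles CASP8 but lacks its protease activity and occupies the same complex, and the decoy receptors bind TRAIL without passing on a death signal.

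The deposited totals ran from 21177424 to 63927449 expected counts per library, with the HL-60 high-dose libraries at 21177424 and 32012199 and the HL-60 controls at 40518695 and 63927449. The share of counts from mitochondrial genes was 5.46% and 4.64% in HL-60 cells at the high dose and 2.22% and 2.47% in their controls, and 4.09% and 2.72% in Molm-14 cells at the high dose and 1.47% and 1.68% in their controls. The part of this share in the results was not tested. Levels are given as CPM, counts relative to the library total, after TMM scaling of the libraries, and as TPM, which also divides by transcript length, wherever genes are compared with each other. The labelled lines were checked against markers: MPO, a granule enzyme of promyelocytes, was at 15677 ± 43.3 CPM in HL-60 controls and 149 ± 7.18 CPM in Molm-14 controls (SD, n = 2), and HOXA9, which is high in leukemias with KMT2A fusions, was at 0.0558 ± 0.041 CPM in HL-60 controls and 119 ± 1.39 CPM in Molm-14 controls. Of the 4 granule markers read, 2 were higher and 2 lower in HL-60 than in Molm-14 controls. PRTN3 was higher too, at 2067 CPM in HL-60 and 556 CPM in Molm-14 controls. The lower ones were ELANE, at 414 CPM in HL-60 and 872 CPM in Molm-14 controls, and AZU1, at 209 and 1554 CPM.

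Markers of maturing cells moved with dose, in part differently in the 2 lines. The 3 monocyte markers CD14, CSF1R and FCGR3A summed to 37.2 to 40 CPM in HL-60 cells at the high dose and 2.24 to 2.55 CPM in their controls, and to 28.8 to 29.4 CPM in Molm-14 cells at the high dose and 9.21 to 10.5 CPM in their controls, with FCGR3A at 0 in all 12 libraries. In Molm-14 cells this sum was nearly all CSF1R, at 28.7 and 29.2 CPM at the high dose and 10.4 and 9.15 CPM in controls, and CD14 was at 0.0831 and 0.181 CPM at the high dose and 0.0948 and 0.0598 CPM in controls. The 4 granule markers of promyelocytes summed to 6522 to 6544 CPM in HL-60 cells at the high dose and 18239 to 18496 CPM in their controls, and to 3572 to 3680 CPM in Molm-14 cells at the high dose and 3073 to 3189 CPM in their controls, where 1 was higher and 1 lower. Markers of other kinds moved too. The 3 T cell markers summed to at most 4.31 CPM in any group, with 4.18 to 4.31 CPM in HL-60 cells at the high dose and 0.536 to 0.628 CPM in their controls. KIT, a progenitor marker, was at 14.2 CPM at the high dose and 10.7 CPM in controls of HL-60 cells. In Molm-14 cells KIT was at 5.82 and 1.92 CPM. In HL-60 cells the B cell marker CD79A was at 5.44 CPM at the high dose and 2.51 CPM in controls. The erythroid marker EPOR was called higher in HL-60 and lower in Molm-14 cells. The part of these markers in the results was not tested, and in RNA of whole cultures fewer cells of a kind cannot be told apart from less RNA per cell.

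In HL-60 cells at the high dose, 6 of the 10 genes were higher and 1 was lower at an adjusted p under 0.05 (edgeR's quasi-likelihood test), and over all genes tested 35.8% were higher and 37.8% lower. At the high dose of Molm-14 cells 7 rose and 0 fell, against 22.9% and 21.9% of all genes. At the low doses, 3 genes rose and 0 fell in HL-60 cells, where 24.2% of all genes were higher and 27.4% lower, and 1 rose and 0 fell in Molm-14 cells, where 0.969% were higher and 0.238% lower. The median log2 fold change of 9 genes, leaving out the nearly unexpressed TNFRSF10C, was 0.20 in HL-60 cells at the high dose and 0.37 in Molm-14 cells at the high dose, with a median of 0.00 over all genes in both. At the low doses it was -0.05 in HL-60 and 0.05 in Molm-14 cells, against 0.00 and -0.00 over all genes. Both high-dose counts include TNFRSF10C, which passed the filter on low counts only through the HL-60 high-dose group and whose Molm-14 controls had 0 counts, and without it 5 genes were higher in HL-60 and 6 in Molm-14 cells. The count at the low dose of Molm-14 cells rested on TNFRSF10B alone.

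**Figure D1:**
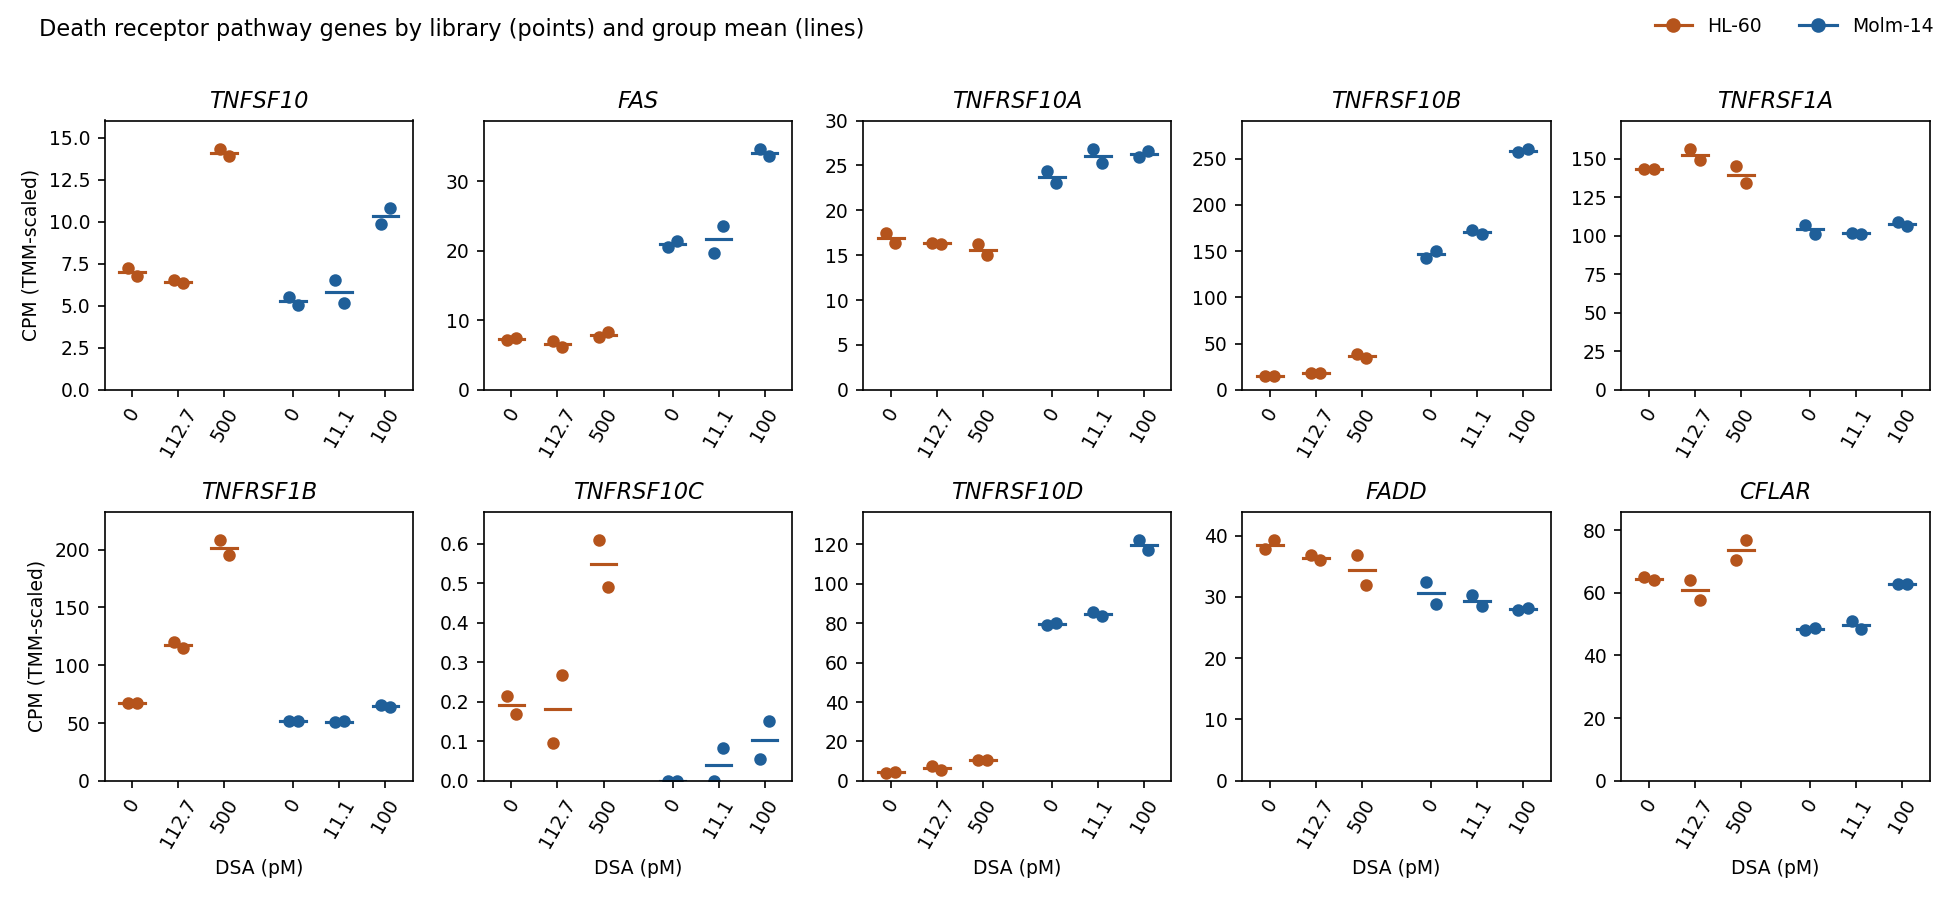
CPM (TMM-scaled, linear axis from 0) of each of the 10 genes, 1 panel per gene, with HL-60 libraries left of Molm-14 libraries and the DSA dose in pM on the horizontal axis. Points are single libraries and bars are the means of 2 libraries. TNFRSF1B climbed with dose in HL-60 cells to 208 and 195 CPM, and TNFRSF10B reached 257 and 260 CPM in Molm-14 cells at 100 pM.

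The order of the 10 genes by TPM differed between the lines before any treatment. In HL-60 controls TNFRSF1A led at 126.2 ± 7.65 TPM (SD, n = 2), far above CFLAR at 26.45 ± 2.15, FADD at 26.09 ± 0.403 and TNFRSF1B at 22.12 ± 0.00707 TPM. The libraries of CFLAR and FADD overlapped, and TNFRSF10A (9.565), TNFSF10 (6.4), TNFRSF10B (5.075), FAS (4.71), TNFRSF10D (1.465) and TNFRSF10C (0.14 TPM) followed without overlap. In Molm-14 controls TNFRSF1A led too, at 93.19 ± 2.75 TPM, but TNFRSF10B was next at 53.59 ± 2.82 and TNFRSF10D next at 25.3 ± 0.544 TPM. FADD stood at 19.7 ± 1.38 TPM, TNFRSF1B and CFLAR overlapped at 16.25 ± 0.877 and 16.07 ± 1.07 TPM, and FAS (13.71), TNFRSF10A (12.98), TNFSF10 (5.265) and TNFRSF10C (0 TPM) closed the order. At the high doses TNFRSF1B moved to the second place in HL-60 cells, at 69.66 ± 3.82 TPM, and in Molm-14 cells TNFRSF10B, at 89.97 ± 0.679 TPM, overlapped TNFRSF1A, at 93.99 ± 5.32 TPM.

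All 10 genes differed between the untreated lines, 6 of them higher and 4 lower in HL-60 than in Molm-14 cells (TNFRSF10C, with 0 counts in Molm-14 controls, among the 6), where 43.9% of all genes were higher and 40.1% lower. The log2 fold change was -4.17 for TNFRSF10D (SE 0.069, adjusted p = 1.85e-20), -3.30 for TNFRSF10B (SE 0.0518, adjusted p = 8.46e-21) and -1.51 for FAS (SE 0.0873, adjusted p = 4.15e-12). TNFRSF10A differed less, at -0.49 (SE 0.0639, adjusted p = 8.13e-07). TNFRSF1A, CFLAR, TNFSF10, TNFRSF1B and FADD were higher in HL-60 controls by log2 fold changes of 0.46, 0.41, 0.40, 0.38 and 0.33, with adjusted p from 5.61e-09 to 0.00374. The call on TNFSF10 was lost when all libraries were thinned to the smallest total (0.29, adjusted p = 0.0659).

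TNFSF10, the TRAIL ligand, which binds all 4 TNFRSF10 receptors, was higher at the high dose in both lines. HL-60 cells had 7.27 and 6.79 CPM without DSA, 6.55 and 6.32 CPM at 112.7 pM, and 14.3 and 13.9 CPM at 500 pM. Molm-14 cells had 5.53 and 5.05 CPM without DSA, 6.53 and 5.13 CPM at 11.1 pM, and 9.88 and 10.8 CPM at 100 pM. The high-dose libraries thus lay above all others of their line, while the low-dose libraries overlapped the controls in Molm-14 cells and lay just below them in HL-60 cells. Its log2 fold change at the high dose was 1.01 (SE 0.106, adjusted p = 6.82e-08) in HL-60 and 0.97 (SE 0.116, adjusted p = 1.59e-06) in Molm-14 cells, and the difference between those changes was 0.04 with a 95% interval of -0.27 to 0.35 (adjusted p = 0.863). By the deposited TPM the log2 ratio was 1.19 in HL-60 and 0.68 in Molm-14 cells, a difference of 0.51 on which no test was run. The low doses gave -0.12 (adjusted p = 0.406) in HL-60 and 0.14 (adjusted p = 0.738) in Molm-14 cells.

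Its promoter window is shown because TNFSF10 was higher at the high dose in both lines. It is the RefSeq window of 300 bases, 250 before and 50 after the start, on the minus strand of GRCh38.p14 at chr3:172523381-172523680, overlapping the start of the gene annotated at chromosome 3, 172505508 to 172523475. Capitals mark the matches found in it, both to the interferon regulatory factor (IRF) motif.
TNFSF10: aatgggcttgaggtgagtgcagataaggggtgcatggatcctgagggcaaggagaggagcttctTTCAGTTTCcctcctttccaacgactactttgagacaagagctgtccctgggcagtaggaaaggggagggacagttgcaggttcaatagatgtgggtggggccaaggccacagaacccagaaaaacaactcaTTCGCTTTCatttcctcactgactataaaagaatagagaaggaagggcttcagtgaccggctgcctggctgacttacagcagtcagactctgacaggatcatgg
Both matches lie upstream of the canonical start, at positions -186 and -54. The motif searched was GAAANNGAA on both strands, and 8.11% of all 35116 promoter windows hold it. The other motifs searched on both strands were the GC box GGGCGG (45% of windows), the AP-1 motif TGANTCA (7.71%), the STAT motif TTCNNNGAA (7.66%), the C/EBP-ATF motif TGATGNAAT (0.991%) and the NF-kB motif (5.91%). Matches may overlap, and a match describes letters only. Of the 10 genes, 6 were searched, with 11 windows in all, 3 of FAS, 4 of CFLAR and 1 each of the others.

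FAS, the receptor of FAS ligand, was higher in Molm-14 cells at the high dose and was not called in HL-60 cells at either dose. Libraries of HL-60 cells held 7.16 and 7.48 CPM with no DSA, 7.04 and 6.12 CPM at 112.7 pM, and 7.58 and 8.26 CPM at 500 pM. Libraries of Molm-14 cells held 20.5 and 21.4 CPM with no DSA, 19.7 and 23.6 CPM at 11.1 pM, and 34.6 and 33.6 CPM at 100 pM. The high-dose libraries of Molm-14 cells stood clear of the other 4, and in HL-60 cells they exceeded the highest control by little. At the high dose the log2 fold change was 0.12 in HL-60 cells (95% interval -0.09 to 0.33, adjusted p = 0.322) and 0.70 in Molm-14 cells (SE 0.0751, adjusted p = 3.97e-07), and the HL-60 change minus the Molm-14 change was -0.58 (SE 0.13, adjusted p = 0.00083). With library totals alone the HL-60 value passed the threshold (0.30, adjusted p = 0.0192). By the deposited TPM the difference between the lines was -0.34, on which no test was run. At the low dose the log2 fold change was -0.17 (adjusted p = 0.209) in HL-60 and 0.05 (adjusted p = 0.884) in Molm-14 cells. Between the high and low doses in HL-60 cells FAS differed by 0.29 (adjusted p = 0.0493), a call lost without HL-60 low-dose replicate 2 (0.18, adjusted p = 0.359), without HL-60 high-dose replicate 2 (0.22, adjusted p = 0.271) and with DESeq2 (adjusted p = 0.101).

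FAS spans chromosome 10, 88953813 to 89029605, on the plus strand (gene ENSG00000026103.22), where its exons share 387 bases with ACTA2 on the other strand and 166 bases with STAMBPL1 on the same strand. Counting that splits such reads is uncertain, and whether counting used strand was not given in the sources used. FAS was also summed with all counts of its overlapping genes. At the high dose that sum changed by 1.18 in Molm-14 cells (adjusted p = 4.18e-13) and by -0.05 in HL-60 cells (adjusted p = 0.453). Between the high and low doses in HL-60 cells the sum changed by 0.035 (adjusted p = 0.682). At their highest, ACTA2 reached 214% and STAMBPL1 248% of the FAS count of a library, so these values describe the sum and not FAS alone.

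TNFRSF10B, which carries a death domain and is 1 of the 2 TRAIL receptors that signal death, was higher at both doses in both lines. Its HL-60 values were 15.2 and 14.6 CPM with no DSA, 18.6 and 18 CPM at 112.7 pM, and 39 and 34.7 CPM at 500 pM. Its Molm-14 values were 143 and 150 CPM with no DSA, 173 and 168 CPM at 11.1 pM, and 257 and 260 CPM at 100 pM. The 3 groups of each line did not overlap, and every HL-60 library lay below every Molm-14 library. The log2 fold change at the high dose was 1.30 (SE 0.06, adjusted p = 5.53e-13) in HL-60 and 0.82 (SE 0.0411, adjusted p = 1.12e-11) in Molm-14 cells, and at the low dose 0.30 (SE 0.0686, adjusted p = 0.00114) in HL-60 and 0.22 (SE 0.0416, adjusted p = 0.0108) in Molm-14 cells. The change at the high dose was larger in HL-60 cells by 0.48 (SE 0.0728, adjusted p = 1.51e-05). The low-dose call in Molm-14 cells was lost without Molm-14 control replicate 1 (0.19, adjusted p = 0.29) and without Molm-14 low-dose replicate 1 (0.20, adjusted p = 0.111). Exons of TNFRSF10B share 377 bases with RHOBTB2 on the other strand, which at its highest had 70.3% of the TNFRSF10B count of a library. With all overlapping counts added, the sum changed at the high dose by 1.11 in HL-60 cells (adjusted p = 6.14e-13) and 0.72 in Molm-14 cells (adjusted p = 3.94e-11).

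TNFRSF10A, the other TRAIL receptor that signals death, was not called at either dose in either line. HL-60 cells had 17.5 and 16.4 CPM without DSA, 16.4 and 16.3 CPM at 112.7 pM, and 16.2 and 15 CPM at 500 pM. Molm-14 cells had 24.4 and 23.1 CPM without DSA, 26.8 and 25.3 CPM at 11.1 pM, and 25.9 and 26.6 CPM at 100 pM. The high-dose libraries lay below the controls in HL-60 cells and above them in Molm-14 cells, where they overlapped the low-dose libraries. At the high dose its log2 fold change was -0.12 (95% interval -0.26 to 0.01, adjusted p = 0.122) in HL-60 and 0.15 (95% interval 0.02 to 0.27, adjusted p = 0.0662) in Molm-14 cells. At the low dose it was -0.05 (adjusted p = 0.595) in HL-60 and 0.13 (adjusted p = 0.42) in Molm-14 cells. The difference between the high-dose changes, -0.27 (SE 0.0943, adjusted p = 0.0208), lost its call with RLE factors (-0.21, adjusted p = 0.0653), with library totals alone (-0.12, adjusted p = 0.296) and without any of 4 libraries, Molm-14 control replicate 2 (adjusted p = 0.0865), Molm-14 high-dose replicate 2 (adjusted p = 0.059), HL-60 control replicate 1 (adjusted p = 0.0775) and HL-60 high-dose replicate 2 (-0.20, adjusted p = 0.129). The call on that difference was also lost with DESeq2 (adjusted p = 0.221), with thinning (adjusted p = 0.127) and with overlapping genes summed (-0.14, adjusted p = 0.205). The value of Molm-14 cells at the high dose passed the threshold in 4 alternatives, among them library totals alone (0.18, adjusted p = 0.024) and summing overlapping genes (adjusted p = 0.046). Exons of TNFRSF10A share 266 bases with TNFRSF10A-DT on the other strand, which at its highest had 36.3% of the TNFRSF10A count of a library. With all overlapping counts added, the sum changed by 0.01 in HL-60 cells at the high dose (adjusted p = 0.877).

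TNFRSF1A (ENSG00000067182.7, chromosome 12, 6328757 to 6342114), the main death receptor for tumour necrosis factor, had the highest mean TPM of the 10 genes in every group, with libraries that overlapped those of TNFRSF10B in Molm-14 cells at the high dose, and was not called at either dose against controls. Libraries of HL-60 cells held 143 and 143 CPM with no DSA, 156 and 149 CPM at 112.7 pM, and 145 and 134 CPM at 500 pM. Libraries of Molm-14 cells held 107 and 101 CPM with no DSA, 102 and 101 CPM at 11.1 pM, and 109 and 106 CPM at 100 pM. The high-dose libraries overlapped the controls in both lines, and the low-dose libraries of HL-60 cells lay above their controls. Against controls the high dose gave a log2 fold change of -0.04 (95% interval -0.12 to 0.05, adjusted p = 0.44) in HL-60 and 0.05 (95% interval -0.04 to 0.13, adjusted p = 0.424) in Molm-14 cells. With library totals alone the HL-60 value was 0.15 and passed the threshold (adjusted p = 0.00407). The low dose gave 0.09 (adjusted p = 0.0718) in HL-60 cells, which passed the threshold in 5 alternatives, among them RLE factors (0.14, adjusted p = 0.00842) and DESeq2 (adjusted p = 0.01), and -0.04 (adjusted p = 0.812) in Molm-14 cells. In HL-60 cells the high dose was lower than the low dose by a log2 fold change of -0.13 (adjusted p = 0.0166), a call lost with library totals alone (-0.02, adjusted p = 0.721), without HL-60 low-dose replicate 1 (adjusted p = 0.133) and without HL-60 high-dose replicate 2 (adjusted p = 0.269).

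TNFRSF1B, which binds tumour necrosis factor but has no death domain, changed most of the 9 expressed genes in HL-60 cells. Its HL-60 values were 67.6 and 67.2 CPM with no DSA, 120 and 115 CPM at 112.7 pM, and 208 and 195 CPM at 500 pM. Its Molm-14 values were 51.6 and 51.9 CPM with no DSA, 51.2 and 51.4 CPM at 11.1 pM, and 65.4 and 63.9 CPM at 100 pM. The HL-60 groups stood apart at each dose, and in Molm-14 cells only the high-dose libraries did. The log2 fold change at the high dose was 1.58 (SE 0.0401, adjusted p = 1.33e-16) in HL-60 and 0.32 (SE 0.0445, adjusted p = 9.02e-06) in Molm-14 cells, with a difference of 1.26 (SE 0.0598, adjusted p = 4.05e-12). At the low dose it was 0.80 (SE 0.0413, adjusted p = 5.86e-11) in HL-60 and -0.01 (adjusted p = 0.968) in Molm-14 cells. The ratio of TNFRSF1B to TNFRSF1A in TPM was 0.175 ± 0.0106 in HL-60 controls, 0.289 ± 0.0325 at the low dose and 0.534 ± 0.0198 at the high dose (SD, n = 2).

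The promoter window of TNFRSF1B is shown because TNFRSF1B had the largest difference between the high-dose changes of the lines. It lies on the plus strand of GRCh38.p14 at chr1:12166741-12167040, with the gene at chromosome 1, 12166991 to 12209228. Capitals mark 2 GC boxes that overlap by 1 base, at positions -55 and -50 from the canonical start, and 1 IRF match at -9.
TNFRSF1B: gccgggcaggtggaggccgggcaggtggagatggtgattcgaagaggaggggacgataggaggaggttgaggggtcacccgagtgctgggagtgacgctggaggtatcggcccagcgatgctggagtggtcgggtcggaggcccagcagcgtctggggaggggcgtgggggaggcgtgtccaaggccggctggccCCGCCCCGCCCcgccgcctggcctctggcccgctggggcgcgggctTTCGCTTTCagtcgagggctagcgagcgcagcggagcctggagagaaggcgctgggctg
The window held no match to the NF-kB motif, which says only that those letters are not in these 300 bases. An NF-kB match was found in 1 window of FAS, at chromosome 10, 88991274 to 88991283, and in 1 of CFLAR, at chromosome 2, 201118619 to 201118628. The window of TNFRSF1A held no match to any motif searched.

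TNFRSF10D, a decoy with a shortened death domain, was higher at the high dose in both lines. HL-60 cells had 4.18 and 4.58 CPM without DSA, 7.28 and 5.65 CPM at 112.7 pM, and 10.6 and 10.6 CPM at 500 pM. Molm-14 cells had 79.1 and 80 CPM without DSA, 85.9 and 83.4 CPM at 11.1 pM, and 122 and 117 CPM at 100 pM. The groups of each line did not overlap. The log2 fold change at the high dose was 1.26 (SE 0.0967, adjusted p = 8.71e-10) in HL-60 and 0.59 (SE 0.0476, adjusted p = 1.03e-08) in Molm-14 cells, with a difference of 0.67 (SE 0.108, adjusted p = 2.99e-05). At the low dose it was 0.52 (SE 0.111, adjusted p = 0.000675) in HL-60 and 0.09 (adjusted p = 0.5) in Molm-14 cells.

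TNFRSF10C, a decoy anchored in the membrane by a lipid and without a death domain, was close to undetected. HL-60 cells had 7.65 and 10.26 expected counts with no DSA, 2.38 and 7.82 at 112.7 pM, and 12.71 and 15.82 at 500 pM. Molm-14 cells had 0 and 0 expected counts with no DSA, 0 and 2.8 at 11.1 pM, and 1.73 and 4.91 at 100 pM. Only the 2 HL-60 high-dose libraries lay above 0.269 CPM, so that TNFRSF10C passed the filter on low counts through the group where it is highest. No Molm-14 library passed 4.91 counts, a count of 0 allows up to 3, and no fold change is given against the controls at 0. For this reason its change in HL-60 cells at the high dose, a fitted log2 fold change of 1.51, is given as a description with no test. Of its 50-base words, 28% occur in other genes too, and its exons share 261 bases with an unnamed gene that had 9 to 42.18 counts, so its counts are uncertain.

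All 4 TRAIL receptor genes lie side by side on chromosome 8, between positions 23020133 and 23225102. In TPM, the decoy receptors made up 15.6% ± 1.63 of the 4 in HL-60 cells at the high dose and 9.97% ± 1.45 in their controls, and 26.7% ± 0.283 in Molm-14 cells at the high dose and 27.6% ± 0.354 in their controls (SD, n = 2). By library, the decoy share was 14.4% and 16.7% at the high dose and 8.95% and 11% in controls of HL-60 cells, without overlap, and 26.9% and 26.5% at the high dose and 27.8% and 27.3% in controls of Molm-14 cells. Within the death-signalling pair, TNFRSF10B took 60.6% and 60.2% at the high dose and 31.9% and 37.9% in controls of HL-60 cells, and 87.5% and 87.2% at the high dose and 79.6% and 81.3% in controls of Molm-14 cells. The pair summed to 22.7 ± 2.76 TPM in HL-60 cells at the high dose and 14.6 ± 1.74 TPM in their controls, and to 103 ± 1.06 TPM in Molm-14 cells at the high dose and 66.6 ± 2.51 TPM in their controls. No test was run on these shares.

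**Figure D2:**
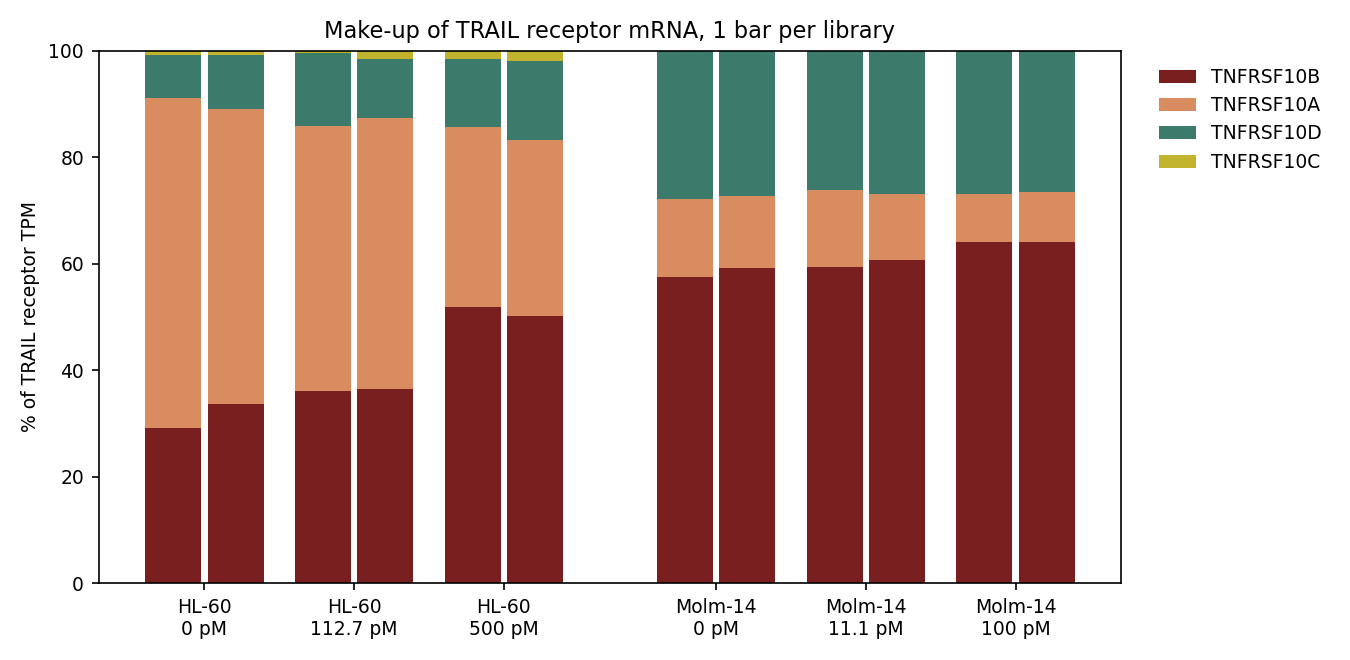
Share (%) of the TPM of the 4 TRAIL receptor genes that each gene took, as a stacked bar from 0 to 100 for each of the 12 libraries, HL-60 libraries left of Molm-14 libraries. The decoys took 14.4% and 16.7% in HL-60 cells at the high dose and 8.95% and 11% in their controls, and 26.2% to 27.8% in all 6 Molm-14 libraries.

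FADD (ENSG00000168040.4, chromosome 11, 70203296 to 70207390), the adaptor between the receptors and the initiator caspases, moved little. Libraries of HL-60 cells held 37.8 and 39.2 CPM with no DSA, 36.8 and 36 CPM at 112.7 pM, and 36.8 and 31.9 CPM at 500 pM. Libraries of Molm-14 cells held 32.5 and 28.9 CPM with no DSA, 30.3 and 28.5 CPM at 11.1 pM, and 27.8 and 28.1 CPM at 100 pM. The high-dose libraries lay below the controls in both lines. Against controls the high dose gave a log2 fold change of -0.18 (SE 0.0655, adjusted p = 0.0189) in HL-60 and -0.13 (95% interval -0.27 to -0.00, adjusted p = 0.122) in Molm-14 cells. The call in HL-60 cells was lost with RLE factors (adjusted p = 0.0902), DESeq2 (adjusted p = 0.217), without HL-60 control replicate 2 (adjusted p = 0.108) and without HL-60 high-dose replicate 2 (-0.07, adjusted p = 0.423), and with library totals alone the value was 0.003. Without Molm-14 control replicate 2 the Molm-14 value passed the threshold (-0.22, adjusted p = 0.041), and without HL-60 high-dose replicate 1 so did the difference between the HL-60 doses (-0.19, adjusted p = 0.0395).

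CFLAR (ENSG00000003402.20, chromosome 2, 201116154 to 201176687), which competes with CASP8 for the complex, was higher at the high dose in both lines. Its HL-60 values were 64.9 and 64 CPM with no DSA, 64.2 and 57.7 CPM at 112.7 pM, and 70.4 and 76.7 CPM at 500 pM. Its Molm-14 values were 48 and 48.8 CPM with no DSA, 51 and 48.4 CPM at 11.1 pM, and 62.7 and 62.7 CPM at 100 pM. The high-dose libraries lay above all others of their line. The log2 fold change at the high dose was 0.20 (SE 0.0509, adjusted p = 0.0019) in HL-60 and 0.37 (SE 0.0533, adjusted p = 1.25e-05) in Molm-14 cells, and the call in HL-60 cells was lost without HL-60 high-dose replicate 2 (0.13, adjusted p = 0.0688). At the low dose it was -0.08 (adjusted p = 0.19) in HL-60 and 0.04 (adjusted p = 0.852) in Molm-14 cells, and the HL-60 value passed the threshold without HL-60 low-dose replicate 1 (-0.16, adjusted p = 0.0369). The ratio of CFLAR to FADD in TPM was 1.32 and 1.47 at the high dose and 1.08 and 0.945 in controls of HL-60 cells, and 1 and 1.11 at the high dose and 0.741 and 0.899 in controls of Molm-14 cells, without overlap in either line.

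**Figure D3:**
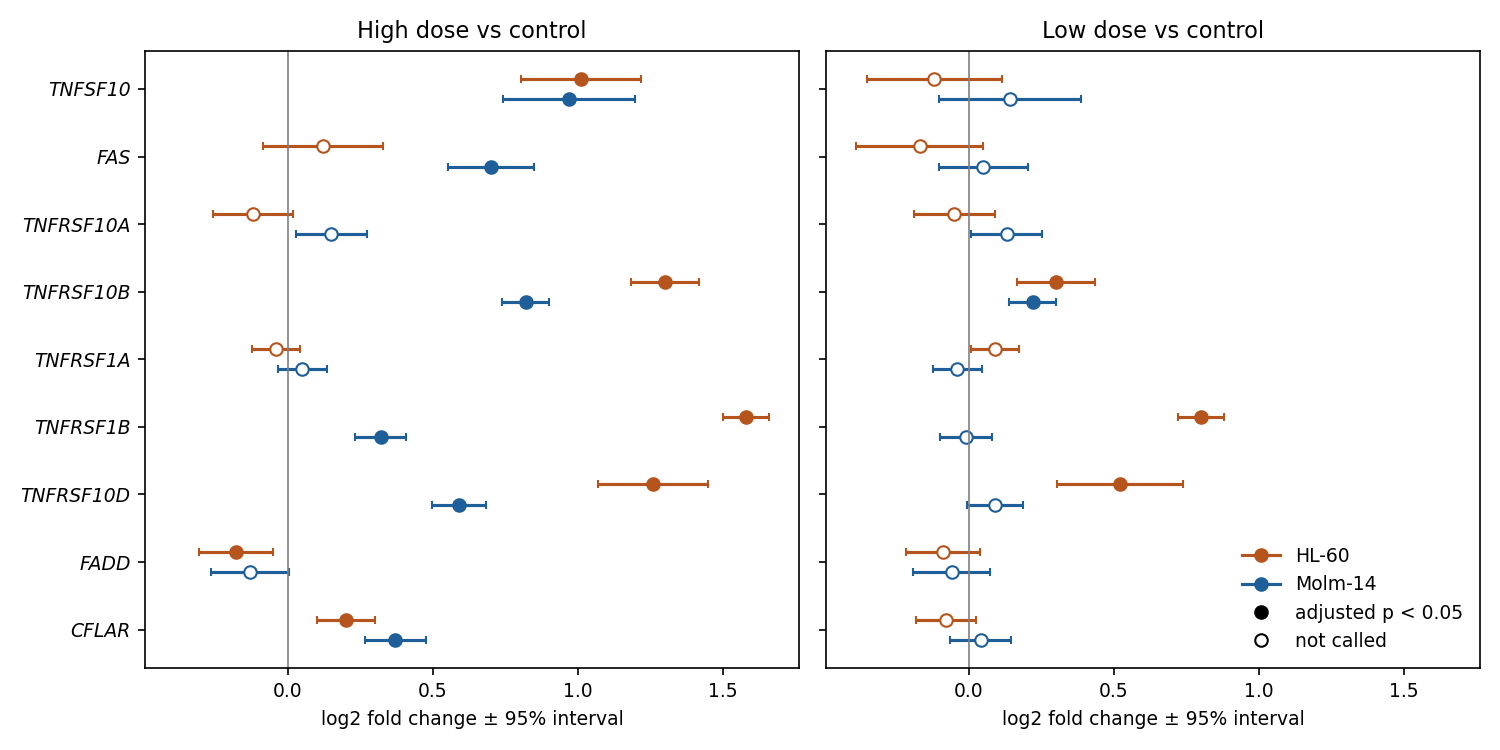
Log2 fold change against the controls of the same line, with 95% intervals, for the 9 genes without TNFRSF10C at the high doses and at the low doses. Each gene has HL-60 cells above Molm-14 cells, and filled points had an adjusted p under 0.05. TNFRSF1B is farthest right, at 1.58 in HL-60 cells at the high dose, and TNFSF10 stands at 1.01 in HL-60 and 0.97 in Molm-14 cells at the high doses.

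Between the lines, the HL-60 change minus the Molm-14 change at the high doses was called for 6 genes, 3 of them higher and 3 lower, where 25.1% of all genes were higher and 30.3% lower. The difference was above 0 for TNFRSF1B, TNFRSF10D and TNFRSF10B and below 0 for FAS, CFLAR and TNFRSF10A, the last with no called change in either line. The value for CFLAR, -0.18 (SE 0.0737, adjusted p = 0.0487), was lost without each of 7 libraries in turn, all but HL-60 high-dose replicate 2 of the 8 compared (largest adjusted p = 0.188), and with library totals alone it was -0.03 (adjusted p = 0.808). The CFLAR call was also lost with RLE factors (adjusted p = 0.18), DESeq2 (adjusted p = 0.297) and a mean of at least 50 counts (adjusted p = 0.119). So it was with all gene types (adjusted p = 0.0536), thinning (adjusted p = 0.0826) and overlapping genes summed (adjusted p = 0.0566). By the deposited TPM the difference for CFLAR had the other sign, at 0.13, with log2 ratios of 0.34 in HL-60 and 0.21 in Molm-14 cells, and no test was run on it. At the nearest doses, 112.7 pM in HL-60 and 100 pM in Molm-14 cells, the same difference was higher for 1 gene and lower for 4, against 16.7% and 21% of all genes. TNFSF10 differed by -1.09 (SE 0.166, adjusted p = 4.22e-05), FAS by -0.88 (adjusted p = 4.74e-05), TNFRSF10B by -0.52 (adjusted p = 4.58e-05) and CFLAR by -0.46 (adjusted p = 8.5e-05), while TNFRSF1B was higher in HL-60 cells by 0.48 (SE 0.0607, adjusted p = 5.46e-06). TNFRSF10D, at -0.07 (95% interval -0.30 to 0.17, adjusted p = 0.713), was not called. These differences use the same Molm-14 controls and HL-60 controls as the comparisons above.

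Between the high and low doses, 6 genes rose and 1 fell in HL-60 cells, where 25.9% of all genes were higher and 26.8% lower. The largest of those called were TNFSF10, with a log2 fold change of 1.13 (adjusted p = 1.85e-07), and TNFRSF10B, with a fold change of 2 (adjusted p = 3.75e-10). In Molm-14 cells 6 genes rose and 0 fell, against 19.6% and 18.5% of all genes, led by TNFSF10 at 0.83 (adjusted p = 9.28e-06), FAS at 0.65 (adjusted p = 1.05e-06) and TNFRSF10B at 0.60 (adjusted p = 1.13e-09).

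Other genes of the pathway were read from lists of named genes. The shares over all genes to set beside the counts are those above, 35.8% higher and 37.8% lower in HL-60 cells and 22.9% higher and 21.9% lower in Molm-14 cells at the high dose. Of 11 partners of the death-inducing complex, 7 rose and 3 fell in HL-60 cells at the high dose (median log2 fold change 0.50), against 4 and 4 in Molm-14 cells (median 0.08). CASP8, the initiator caspase, rose by 0.70 (SE 0.0448, adjusted p = 6.04e-11) in HL-60 and 0.41 (SE 0.0558, adjusted p = 7.31e-06) in Molm-14 cells, and CASP10 by 0.38 in HL-60 and 0.37 in Molm-14 cells. PEA15, of the same list, rose by 0.82 (SE 0.0529, adjusted p = 6.61e-11) in HL-60 and 0.12 (adjusted p = 0.0407) in Molm-14 cells. TRAF2, an adaptor of tumour necrosis factor receptors, fell by 0.28 in HL-60 and 0.29 in Molm-14 cells, and FAF1, which binds FAS, by 0.62 in HL-60 and 0.19 in Molm-14 cells. Of 13 effectors downstream, 5 rose and 6 fell in HL-60 cells (median 0.01) and 4 rose and 3 fell in Molm-14 cells (median -0.06). CYCS, the cytochrome c gene, changed by -0.88 (SE 0.0429, adjusted p = 1.21e-12) in HL-60 cells, and RIPK3, a kinase of necroptosis, by 1.08 in HL-60 and 0.42 in Molm-14 cells.

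Of 13 inhibitors of death receptor signalling other than CFLAR, 7 rose and 4 fell in HL-60 cells (median 0.18), and 3 rose and 3 fell in Molm-14 cells (median 0.00). The list holds CYLD, which removes ubiquitin chains and is known to restrain NF-kB and to favour the death-inducing complex rather than inhibit it. CYLD rose by 1.24 (adjusted p = 2.46e-13) in HL-60 and 0.69 (adjusted p = 7.84e-09) in Molm-14 cells, so both counts of higher genes include a gene that is not an inhibitor in this sense. TNFAIP3 (A20) changed by 1.20 (adjusted p = 1.46e-12) in HL-60 and -0.32 (adjusted p = 0.00025) in Molm-14 cells. Of 6 other death ligands 4 were tested, with 3 higher and 0 lower in HL-60 cells (median 2.33) and 0 and 0 in Molm-14 cells (median 0.18 of 3, without a gene at 0). The 3 include LTA, at 1.17 and 1.26 CPM in HL-60 cells at the high dose and at most 0.269 CPM elsewhere. They also include TNFSF15, at 0.328 and 0.768 CPM there and 0.0804 and 0.0339 CPM in HL-60 controls. Neither would have passed the filter on low counts without the HL-60 high-dose group. Their calls, and the median that holds them, are thus a description with no test. LTB, at 11 and 9.86 CPM in HL-60 cells at the high dose and 4.18 and 4.38 CPM in their controls, rose by 1.27 (SE 0.118, adjusted p = 1.3e-08), and FASLG, the FAS ligand, was at 0 CPM in 11 of 12 libraries. Of 8 other death receptors and soluble decoys 4 were tested, with 3 higher in HL-60 and 2 higher in Molm-14 cells and 0 lower in both (median 1.0 in HL-60 cells and 0.28 of 3 in Molm-14 cells, against 0.00 over all genes in both). The 3 in HL-60 cells include NGFR, at 0.328 and 0.737 CPM at the high dose and at most 0.0964 CPM in any other library. NGFR passed the filter on low counts only through that group, so its call, and its place in the HL-60 median, are a description with no test. TNFRSF12A rose by 1.37 (SE 0.103, adjusted p = 6.25e-10) in HL-60 cells, and EDA2R by 1.84 (SE 0.31, adjusted p = 8.06e-05) in Molm-14 cells. Of 7 genes of receptor shedding and trafficking 6 were tested, with 3 higher and 1 lower in HL-60 cells (median 0.14) and 3 higher and 0 lower in Molm-14 cells (median 0.17).

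Transcription factors known to bind these genes, and targets of NF-kB, were read in the same way. Of 13 factors tested, 7 rose and 5 fell in HL-60 cells (median 0.28) and 4 rose and 5 fell in Molm-14 cells (median -0.11). In HL-60 cells NFKB2 was at 2.76 (adjusted p = 4.78e-17) and RELB at 1.97 (adjusted p = 5.18e-12). The means of RELA and ATF4 were lower there, at 87.9 and 444 CPM at the high dose and 98 and 715 CPM in controls. In Molm-14 cells RELB was at 0.72 (adjusted p = 0.000229) and NFKB2 at 0.20 (adjusted p = 0.0289). Lower in Molm-14 cells were NFKB1, at -0.13 (adjusted p = 0.0296), and ATF4, at -0.61 (adjusted p = 3.96e-10). Of 12 NF-kB targets, 12 rose and 0 fell in HL-60 cells (median 2.18) and 9 rose and 1 fell in Molm-14 cells (median 0.76).

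**Figure D4:**
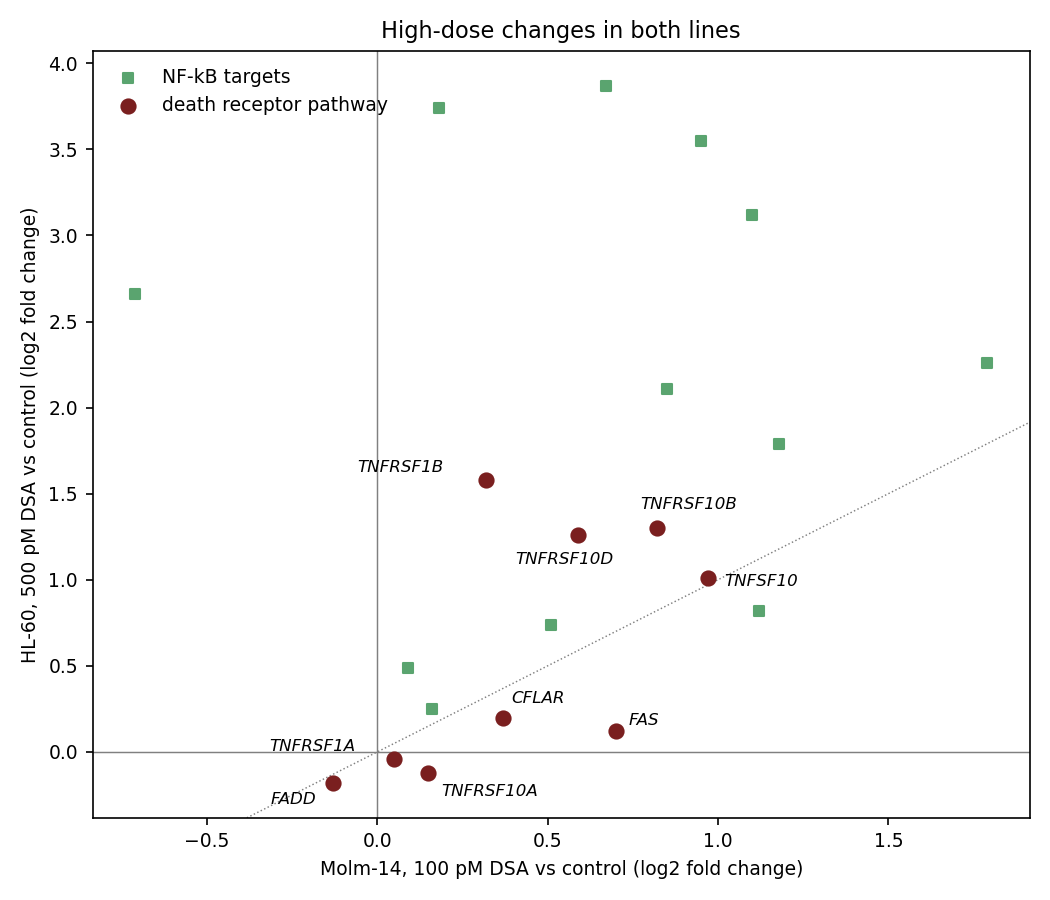
Log2 fold change at the high dose in Molm-14 cells (horizontal) and in HL-60 cells (vertical) for 9 of the 10 genes and for the NF-kB targets, without genes at 0 in a group. The dotted line marks equal changes. TNFSF10 lies close to it, TNFRSF1B, TNFRSF10D and TNFRSF10B lie above it, and FAS lies near 0.12 in HL-60 cells at 0.70 in Molm-14 cells.

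The genes most like each of the 10 were found by Pearson's r of log2 CPM over the 12 libraries among 11288 genes, as a description in which the points share lines and doses. For FAS they were SESN1 (r = 0.995) and WDR26 (r = 0.994), for TNFRSF10B SIRPA and ADGRE2 (r = 0.998 each), for TNFRSF10D ZBTB4 and CHD3 (r = 0.999 each), and for TNFRSF1B JAG2 and SH3PXD2A (r = 0.994 each). For TNFRSF10A they were KLHL12 (r = 0.994) and PNISR (r = 0.992), for TNFRSF1A ATP6V0C and ARL16 (r = 0.992 each), for TNFSF10 S100A8 (r = 0.960) and RARA (r = 0.955), for FADD ENSG00000275778 (r = 0.976) and PUSL1 (r = 0.963), and for CFLAR ANKEF1 and FBXL20 (r = 0.949 each). TNFRSF10C, with few counts, had STX16 at r = 0.948. The r covers both lines, which differ widely in FAS, TNFRSF10B and TNFRSF10D.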

How the data were processed

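Total RNA of 12 libraries was sequenced, 2 for each of 6 groups of line and dose at 36 h. The authors trimmed reads with Trim Galore (0.60), mapped them to hg38 with STAR (2.7) and estimated values per gene using RSEM (1.31) and the GENCODE release 31 annotation. The deposited expected counts are unscaled estimates per gene, and the deposited TPM are scaled by length and depth. Whether counting used strand was not given in the sources used.

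Identifiers without version were matched to GENCODE release 44 (60261 of 60754). Protein-coding genes of level 1 or 2 (19868) were kept. Expected counts were rounded, and edgeR 4.0.16 (R 4.3.3) was run on the 13422 genes passing filterByExpr, scaled libraries by TMM, fitted all 12 libraries and tested 9 comparisons with glmQLFTest. P-values were adjusted by Benjamini-Hochberg over all genes tested, and called means an adjusted p under 0.05. The SE is the log2 fold change divided by the square root of F. The 95% intervals take that SE with a normal distribution, not the degrees of freedom of the F test, and are somewhat narrower than the test. For FADD in Molm-14 cells at the high dose the interval ended at -0.00, while the unadjusted p of glmQLFTest was 0.0654. The 10 genes and the lists were chosen with earlier results of these data known. Named genes are the 10, up to 4 genes per list by smallest p in a comparison, genes overlapping a member and the 2 most correlated genes. Nothing states separate cultures, so p-values measure the spread between these libraries, which may be technical. Replicates differed by more than sampling noise (chi-square over degrees of freedom 2.25 to 3.94). Totals per library set the precision, with a median of 35957896.4. Alternatives were other scalings, filters, gene types and libraries, DESeq2 1.42.0, limma-voom 3.58.1, thinning, a replicate block and leaving out each library. A further gene list and motif are not reported here.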

Additional observations from a re-analysis of the deposited data

Results flagged for a closer look

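For 6 genes the change at the high dose differed between the lines, 3 of them higher and 3 lower, where 25.1% of all genes were higher and 30.3% lower. The difference, tested in edgeR's quasi-likelihood fit, is given as the HL-60 change minus the Molm-14 change on the log2 scale. It was 1.26 for TNFRSF1B (1.58 in HL-60 and 0.32 in Molm-14 cells), 0.67 for TNFRSF10D (1.26 in HL-60 and 0.59 in Molm-14 cells) and 0.48 for TNFRSF10B (1.30 in HL-60 and 0.82 in Molm-14 cells). It was -0.58 for FAS (0.12 in HL-60 and 0.70 in Molm-14 cells), -0.27 for TNFRSF10A (-0.12 in HL-60 and 0.15 in Molm-14 cells) and -0.18 for CFLAR (0.20 in HL-60 and 0.37 in Molm-14 cells). By the deposited TPM, with no test run, the difference for FAS was smaller, at -0.34 (0.23 in HL-60 and 0.58 in Molm-14 cells). By TPM it was 1.32 for TNFRSF1B, 0.77 for TNFRSF10D and 0.68 for TNFRSF10B. The call on CFLAR was lost without each of 7 of the 8 libraries and with the replicate block (adjusted p = 0.0574), and by the deposited TPM its difference was 0.13. The call on TNFRSF10A was lost without each of 4 libraries, and by TPM its difference was -0.08. RLE factors, library totals alone, DESeq2, thinning and overlapping genes summed lost the TNFRSF10A call as well. The doses were 500 pM in HL-60 and 100 pM in Molm-14 cells, so line and dose cannot be told apart.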

How the results depend on the processing

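Over the alternatives, 1226 values kept their direction and their side of the threshold or their size, 50 lost a call, 16 gained one and 36 changed sign, 5 log2 ratios of TPM differed from those of CPM by more than 1 SD (TNFSF10 in both lines, FAS and TNFRSF10A in Molm-14 cells, CFLAR in HL-60 cells), and no value over 0.18 in size changed sign. With a fold change over 2 also asked, the called genes at the high dose were 5 in HL-60 cells (4 without TNFRSF10C) and 1 in Molm-14 cells. In Molm-14 cells it was TNFRSF10C alone, whose fold is against controls at 0. There were 0 at both low doses, 0 between the doses of Molm-14 cells and 2 between those of HL-60 cells. Between the untreated lines there were 4 (TNFRSF10C among them), and 1 for the difference between the lines at the high and at the nearest doses. The share of all genes passing this added threshold was not read, so these counts describe the 10 genes alone. The only call at the low dose of Molm-14 cells was lost when some libraries were left out singly. In each fit of that comparison without a library, fewer of all genes were called as well.

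Library totals alone moved the median of all genes by 0.18 in HL-60 cells at the high dose and the split of calls there to 6304 higher and 3376 lower (4802 and 5075 with TMM, 5187 and 4603 with RLE). They changed the sign of small values: TNFRSF1B 0.005 at the Molm-14 low dose; at the HL-60 high dose TNFRSF1A 0.147 (a gained call, adjusted p = 0.00407), TNFRSF10A 0.060 and FADD 0.003; TNFRSF10A 0.024 at the HL-60 low dose; TNFRSF10A 0.036 and FADD 0.016 between the HL-60 doses; and TNFRSF1A 0.068 and FADD 0.105 for the difference between the lines. RLE factors gave 0.016 for TNFRSF1A at the HL-60 high dose, 0.002 for TNFRSF10A at the low dose and 0.012 for FADD between the lines. DESeq2 gave 0.017 for TNFRSF1A at the HL-60 high dose and 0.019 for FADD between the lines, and a mean of at least 50 counts 0.018 for TNFRSF1A at the HL-60 high dose. Summing overlapping genes gave FAS -0.050 and TNFRSF10A 0.013 at the HL-60 high dose and TNFRSF10A 0.033 between the doses, and thinning gave TNFRSF10D 0.021 at the nearest doses. The causes were not tested.

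Leave-one-out ranges that crossed 0 are listed with their lowest and highest values. At the Molm-14 low dose they were -0.091 to 0.169 for FAS, -0.074 to 0.002 for TNFRSF1A, -0.043 to 0.304 for TNFSF10 and -0.146 to 0.025 for FADD, and between the Molm-14 doses -0.028 to 0.057 for TNFRSF10A. In HL-60 cells they were -0.095 to 0.025 for TNFRSF1A at the high dose, -0.158 to 0.002 for CFLAR at the low dose and -0.191 to 0.017 for FADD between the doses. For the difference between the lines they were -0.025 to 0.106 for TNFSF10 and -0.142 to 0.065 for FADD at the high doses, and -0.038 to 0.133 for FADD and -0.233 to 0.138 for TNFRSF10D at the nearest doses.

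Replicate numbers did not mark pairs across groups (correlations of deviations from -0.083 to 0.178). With the replicate block, TNFRSF1A at the HL-60 low dose gained a call (0.093, adjusted p = 0.0498), CFLAR between the lines lost its call (-0.177, adjusted p = 0.0574), and no other call changed.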
